A study of Gallus gallus with 18 samples.

Results

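Abdominal fat of broiler breeder hens was compared between ad libitum and restricted feeding in 6 RNA-seq libraries, which are 6 of the 18 libraries of a series that also holds liver and ovary of the same 6 hens. All hens were of the Arbor Acres line and were reared on the breeder's feed guide. From week 22 the ad libitum group (libraries F1721, F1723 and F1725, each named for its hen, in this order in sets of values) ate freely of a ration with 17 g of crude protein in 100 g and a metabolizable energy of 11.74 MJ/kg, whereas the restricted group (F1724, F6709 and F6710, in this order after them) stayed on the guide. Every hen was killed at 30 weeks of age, and 1 library was made per hen and tissue, so that both groups share line, rearing, age and housing in single cages. Of 17108 genes in the count table, the 11914 with more than 1 CPM (count scaled to a common library total) in all 3 libraries of at least 1 feeding group were tested, which is 69.6%.

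Abdominal fat is the main energy store of the laying hen. In birds most fatty acids are made in the liver and reach fat cells in lipoproteins, from which lipoprotein lipase (LPL) releases them for storage as triglyceride in droplets coated by perilipins. When feed is short, fat cells turn to lipolysis and fatty acid oxidation. A whole piece of fat holds adipocytes beside vessels, connective tissue, blood cells and the serous lining, so that in such bulk samples a larger number of cells of a type and more RNA per cell cannot be told apart.

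The fat libraries held 14793554 to 22019207 counts, and the 3 counts that a value of 0 allows correspond to between 0.136 and 0.203 CPM. CPM values are given after scaling with the trimmed mean of M-values (TMM). Defining fat-cell genes were abundant in all 6 libraries on a scaling over all 18 libraries. The fatty acid carrier FABP4 lay between 5513 and 10602 CPM in fat and between 0.185 and 3.03 CPM in liver, and the lipid droplet gene PLIN1 between 3053 and 9731 CPM in fat and at most 31.5 CPM in liver. No 2 libraries were identical. Across genes, which are not independent replicates, the correlation of log2 CPM was 0.979 between F1723 and F1725 and 0.971 between F1724 and F6710. F6709 was less like its own group, with 0.937 to F1724 and 0.905 to F6710, and its value to the ad libitum library F1721 was 0.954.

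F6709 also stood apart in genes of cell types other than fat. All 13 tested genes of a ciliated cell list had their highest value there, each at least 2 times the next library, and the summed list reached 514 CPM in F6709 against 40.1 and 52.3 CPM in the other restricted libraries and 26.7 to 33.9 CPM with ad libitum feeding. The general epithelium list summed to 1659 CPM in F6709, 498 CPM in F1721 and 14.2 to 49.6 CPM elsewhere. Oviduct secretion genes summed to 2782 CPM and heterophil genes to 924 CPM in F6709, while their ranges were 245 to 797 CPM and 42.6 to 154 CPM with ad libitum feeding. In F1724 and F6710 the oviduct sums were 272 and 360 CPM and the heterophil sums 78.4 and 50.5 CPM. Most of the oviduct sum in F6709 came from TF with 1996 CPM, which is also in the liver secretion list. EXFABP, with 294 CPM in F6709, is in both the oviduct and the heterophil list, so these sums are not separate. The plot of marker lists shows these sums beside those of fat cells. The part of these cells in the results was not tested. Beside genes whose fold change rests on F6709, and beside list medians that it moves, the value without F6709 is given.

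**Figure D1:**
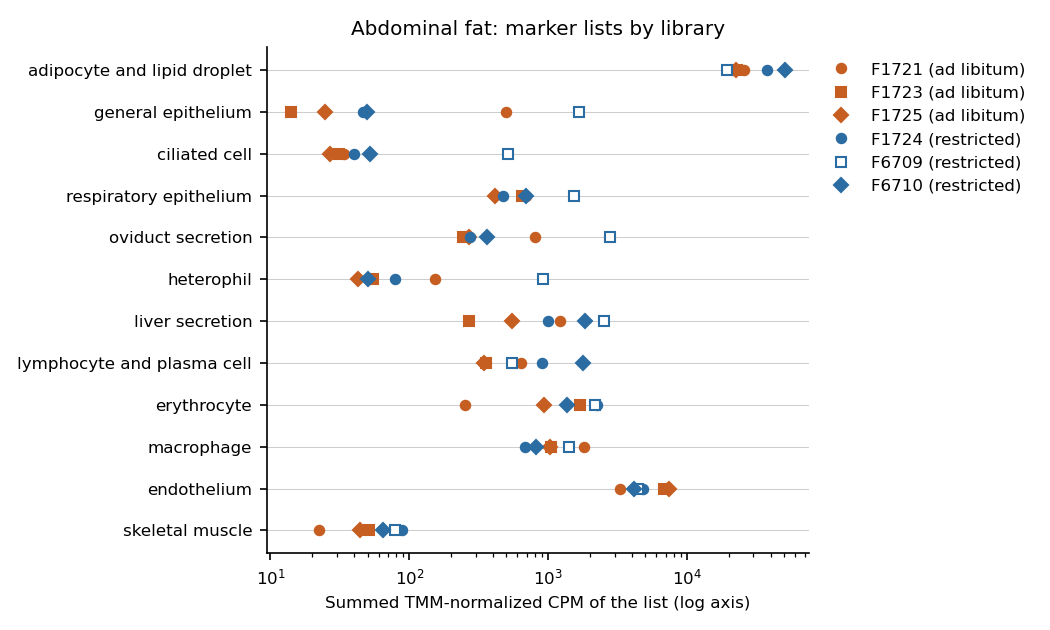
Summed TMM-normalized CPM (log axis) of 12 marker lists in each of the 6 fat libraries, orange for ad libitum and blue for restricted feeding, with F6709 as the open square. The ciliated cell list reads 514 CPM in F6709 and at most 52.3 CPM elsewhere, and the fat cell list is lowest in F6709 and highest in F6710.

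Only 1 gene passed a false discovery rate (FDR) of 0.1 in edgeR's quasi-likelihood test, which is 0.00839% of the 11914 genes. WFIKKN2 encodes a secreted protein with protease inhibitor domains that, in mammals, binds myostatin and its relative GDF11. Its level was 2.82, 2.45 and 2.98 CPM with ad libitum and 20.5, 16.5 and 21 CPM with restricted feeding. All restricted libraries were thus above all ad libitum libraries, the groups lay far apart, and the spread within each group was small. The mean was 2.75 ± 0.272 CPM against 19.4 ± 2.47 CPM (SD, n = 3 each), and the log2 fold change, ad libitum over restricted, was -2.81 with a standard error of 0.243 (adjusted p = 0.0726, edgeR quasi-likelihood). The call held without F6709 and was lost on leaving out any of the other 5 libraries (adjusted p of 0.219 to 0.893), but the log2 fold change stayed between -2.91 and -2.74. In liver and ovary WFIKKN2 was at most 0.624 and 0.693 CPM, so its response could not be compared between tissues.

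No gene was called higher with ad libitum feeding. At an unadjusted p under 0.05 the same test gave 618 genes, 5.19% of those tested, of which 238 (2%) were higher with ad libitum and 380 (3.19%) higher with restricted feeding. DESeq2 called 19 genes higher and 59 lower with ad libitum feeding (0.655% of the 11914), and a likelihood ratio test with gene-wise dispersions called 13 and 75. Of the 78 DESeq2 calls, 76 had groups that did not overlap, and for 20 the F6709 value was at least 2 times that of any other library. The genes described in what follows, apart from WFIKKN2, did not pass the main test, and their values are given as measured levels.

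The libraries of the feeding groups did not overlap for 1045 genes (8.77%), 491 of them higher with ad libitum (4.12%) and 554 higher with restricted feeding (4.65%). If 3 against 3 libraries stand in random order, the groups lie apart in one direction or the other with a probability of 0.1. The observed share was below that, so separation alone is not a sign of a feeding response. A ratio of group means of at least 2 beside the gap was found for 265 genes, of which 63 were higher with ad libitum (0.529%) and 202 higher with restricted feeding (1.7%). Just inside that limit lay MYBL1 with a ratio of 2.01 and PLCH2 with 2.03, and just outside it SESN2 and CYP2D49, both with 1.98. Of the 265 genes, 146 rested on 1 library, meaning that the highest library was at least 2 times the next of all 6 or that the ratio dropped under 2 when any 1 library was left out. That left 32 genes higher with ad libitum and 87 higher with restricted feeding. Many levels were low, since the higher group mean was under 5 CPM for 27 of the 63 and 113 of the 202 genes. A gene could also enter through 1 group alone, and such a filter favours genes whose groups lie apart. With a filter on all 6 libraries the counts were 39 and 77. Without F6709 the counts were 370 and 458, for a comparison of 3 against 2 libraries that separates more easily.

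**Figure D2:**
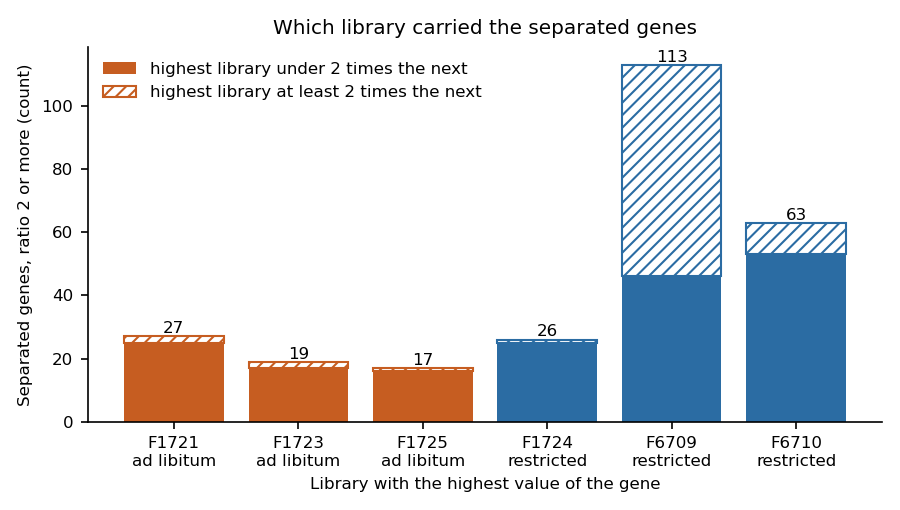
Number of genes with separated groups and a ratio of means of at least 2, by the library with the highest value, with hatching where that library was at least 2 times the next. F6709 was highest for 113 of the 202 genes higher with restricted feeding and at least 2 times the next library for 67 of them.

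Only genes with a symbol could be ranked by name, which were 68 of these 87 and 13 of the 32. Among the 68 genes that were lower with ad libitum feeding and rested on no single library, the stearoyl-CoA desaturase gene SCD, whose enzyme makes monounsaturated fatty acids, had the largest fold change. It was measured at 18.3, 16.6 and 31.8 CPM with ad libitum and 303, 343 and 54.4 CPM with restricted feeding. Both F1724 and F6709 were more than an order of magnitude above F1721 and F1723, whereas F6710 was close to F1725. The log2 fold change was -3.39 (SE 0.679, adjusted p = 0.89, edgeR quasi-likelihood), with -3.87 to -3.01 on leaving out each library. The lowest restricted library, F6710, was thus above the highest ad libitum library, F1725, but by less than the other restricted libraries were. SCD passed an FDR of 0.1 in DESeq2 (adjusted p = 4.5e-05) and in the gene-wise likelihood ratio test (adjusted p = 0.000997).

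GPT2, the mitochondrial alanine aminotransferase, read 4.03, 1.91 and 2.22 CPM against 9.42, 16.1 and 12.6 CPM. All restricted libraries were more than 2 times the highest ad libitum library, F1721, and the log2 fold change was -2.21 (SE 0.387). The calcium-sensing receptor gene CASR read 0, 0.598 and 0.217 CPM against 1.08, 1.63 and 1.34 CPM, and was thus close to the detection floor with ad libitum feeding. The receptor tyrosine kinase gene ROS1 had 0.224, 0.538 and 0.434 CPM with ad libitum and 3.9, 2.47 and 3.28 CPM with restricted feeding (log2 fold change -3.01, SE 0.444). SHANK2, a scaffold protein best known from synapses, had 0.269, 0.359 and 0.542 CPM and 1.88, 4.14 and 2.61 CPM (log2 fold change -2.88, SE 0.48). For both genes the lowest restricted library was more than 3 times the highest ad libitum library.

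The other genes of this group were low throughout. HNF4G, a nuclear receptor of the HNF4 family, lay at 0.134, 0.478 and 0.542 CPM against 1.55, 3.3 and 1.81 CPM, and MBL, a mannose-binding lectin of innate immunity, at 0.761, 0.179 and 0.434 CPM against 1.88, 1.26 and 2.68 CPM. The glucuronosyltransferase UGT1A1, whose locus in mammals shares exons among related transcripts so that counts may be split, lay at 0.582, 0.12 and 0.271 CPM against 1.61, 1.36 and 1.88 CPM. For these genes no ad libitum library exceeded 1 CPM and no restricted library exceeded 4 CPM. The same held for FSIP1, the germ-cell gene RNF17 (a role known from mouse), the GABA receptor subunit GABRB2, the elastase gene CELA1, the potassium channel KCNA4 and GDPD2, whose log2 fold changes ran from -2.74 for FSIP1 to -2.02 for GDPD2. These genes, like CASR, ROS1 and SHANK2, entered the test only through the restricted group, so their gap follows in part from the filter.

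**Figure D3:**
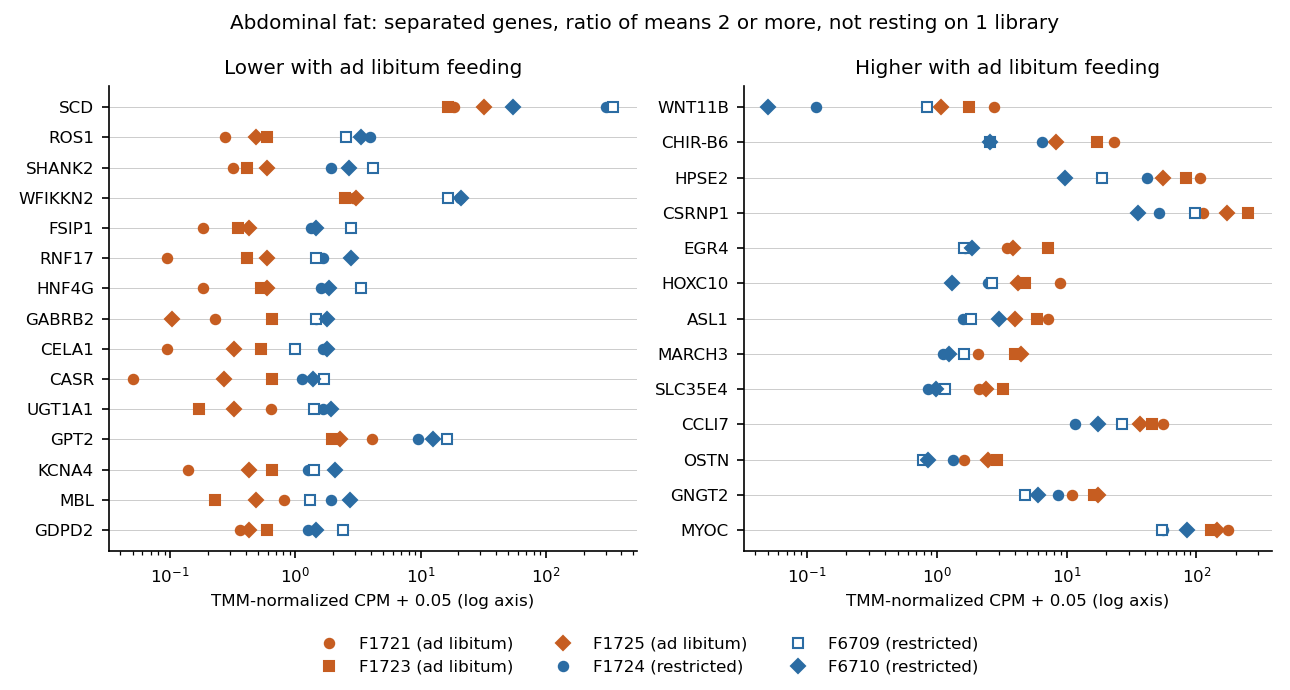
TMM-normalized CPM (log axis, 0.05 added) of separated genes with a symbol and a ratio of at least 2 that rested on no single library, the 15 with the largest fold change of 68 lower (left) and all 13 higher (right) with ad libitum feeding, with 1 point per library in orange for ad libitum and blue for restricted feeding. Orange and blue points do not overlap in any row because that is how the genes were chosen, and WFIKKN2 at 2.82 CPM against 20.5 CPM has the narrowest groups relative to its gap.

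On the higher side, myocilin (MYOC), a secreted glycoprotein, was among the most abundant. It was measured at 176, 129 and 143 CPM with ad libitum and 54.9, 54.3 and 84.9 CPM with restricted feeding. No ad libitum library was under 1.5 times the highest restricted library, F6710. The log2 fold change was 1.21 (SE 0.243). HPSE2, a relative of heparanase that lacks its activity, had 106, 83.6 and 54.9 CPM and 41.4, 18.7 and 9.72 CPM (log2 fold change 1.81, SE 0.519), with F1725 and F1724 next to each other across the gap.

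Transcription regulators of the immediate early kind were also on this side. CSRNP1 had 112, 249 and 172 CPM and 51.8, 97.9 and 35.2 CPM, so that F1721 and F6709 nearly met, and EGR4 had 3.4, 7.17 and 3.8 CPM and 1.61, 1.57 and 1.81 CPM. Immune genes belonged here as well, the chicken Ig-like receptor CHIR-B6 with 23.1, 17.2 and 8.24 CPM against 6.39, 2.52 and 2.55 CPM and the chemokine CCLI7 with 55.7, 45.6 and 36.4 CPM against 11.5, 26.9 and 17.3 CPM. Both come from multigene families with similar members, so that reads may have been assigned unevenly among copies. The homeobox gene HOXC10 read 8.87, 4.72 and 4.18 CPM and 2.42, 2.62 and 1.27 CPM, and the G protein subunit GNGT2 10.9, 16.3 and 17.5 CPM and 8.54, 4.72 and 6.03 CPM. ASL1, which has a near-identical neighbouring copy in chicken, read 7.21, 5.86 and 3.96 CPM and 1.55, 1.78 and 2.95 CPM. The Wnt ligand WNT11B rested on few counts, with 2.73, 1.73 and 1.03 CPM against 0.0673, 0.787 and 0 CPM. MARCH3, SLC35E4 and OSTN stayed under 5 CPM in all libraries, with log2 fold changes of 1.42, 1.39 and 1.28. WNT11B, SLC35E4 and OSTN entered the test only through the ad libitum group.

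Of the genes that rested on 1 library, the 10 with a symbol and the largest ratio on the restricted side all had their highest value in F6709. The epithelial adhesion gene EPCAM read 0, 0.598 and 0.434 CPM with ad libitum and 1.82, 78.6 and 2.01 CPM with restricted feeding. The polymeric immunoglobulin receptor PIGR, which carries antibodies across epithelia, read 4.93, 0.12 and 4.18 CPM and 9.95, 584 and 14.2 CPM. Without F6709 their log2 fold changes moved from -6.37 to -2.52 and from -6.02 to -1.96. The ciliary dynein DNAH5 (0.537, 1.2 and 1.41 CPM against 4.17, 53.2 and 6.63 CPM), the defensin AvBD2 (1.14, 28.3 and 1.74 CPM with restricted feeding) and the cathelicidin CATH1 (2.82, 22.9 and 2.01 CPM) had the same shape, and without F6709 their log2 fold changes moved from -4.36 to -2.37, from -4.81 to -1.96 and from -4.49 to -2.56. EVPL, OVSTL, SPHKAP, ATP13A4 and LECT2 completed the 10 largest ratios, and in each F6709 was more than 5 times the next library. Their log2 fold changes without F6709 ran from -2.14 for ATP13A4 to -0.74 for OVSTL, against -3.93 and -4.30 with it. F1724 and F6710, at levels of 1.01 to 14.2 CPM, were above all ad libitum libraries because only genes with separated groups were chosen. The negative sign of the fold changes without F6709 follows from the same choice. Neither therefore tests a feeding difference without F6709.

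The ratio was not the only sign of F6709. The lung surfactant gene SFTPA read 0.0896, 0 and 6.07 CPM and 7.4, 378 and 4.62 CPM, the lung lectin LL 0.224, 0.12 and 4.12 CPM and 8.14, 428 and 1.81 CPM, and INCENP, a chromosomal passenger protein, 16.7, 10.3 and 9.33 CPM and 12, 735 and 8.91 CPM. These groups overlapped, and without F6709 the log2 fold changes moved from -5.99 to -1.55 for SFTPA, from -6.62 to -1.74 for LL and from -4.38 to 0.22 for INCENP. In the respiratory epithelium list, which holds SFTPA and LL, F6709 was at least 2 times the next library for 3 of 6 tested genes. The other members did not follow. HOPX read 668, 598 and 357 CPM and 427, 552 and 655 CPM, and ETV5 23.9, 41.2 and 40.2 CPM and 24.7, 20.4 and 29.6 CPM. ROS1 was lowest of the restricted libraries in F6709. In the liver of the 6 hens LL was at most 6.87 CPM and SFTPA at most 9.05 CPM. In ovary they were at most 1.91 and 11.9 CPM, so that their level in F6709 was not seen in the other tissues of that hen. DNAH5, at most 5.55 CPM in ovary and 0.104 CPM in liver, was like them. EPCAM was not, with 75.2 to 218 CPM in ovary and 90.3 to 132 CPM in liver against at most 63.4 CPM in fat on the same scaling. PIGR lay between 2941 and 4597 CPM in liver, against at most 471 CPM in fat and 6.67 CPM in ovary. KRT19 reached 253 CPM and KRT7 228 CPM in ovary. The keratins KRT7 (189, 4.01 and 4.34 CPM and 8.41, 360.4 and 7.04 CPM) and KRT19 (223, 1.67 and 4.23 CPM and 8.41, 264 and 6.1 CPM) were high in F1721 as well as in F6709, 1 library of each feeding group, and their log2 fold changes were -0.93 and -0.28 with F6709 and 3.09 and 3.39 without it.

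Genes that rested on 1 library on the ad libitum side had smaller ratios. CHAC1, which degrades glutathione, read 7.52, 28.2 and 7.1 CPM and 5.04, 2.26 and 4.69 CPM and was high in F1723. N-cadherin (CDH2) read 55, 16.6 and 16.9 CPM and 10.8, 15.8 and 6.97 CPM and was high in F1721. FOSL2, CHIR-AB1, P2RY4, PDE4B, TMEM132E, LOXL4, CDKN1A and NXNL1 lay between log2 fold changes of 1.15 and 1.29. CDKN1A, the cell cycle inhibitor p21, read 18.4, 26.5 and 21.3 CPM and 4.98, 16.3 and 8.11 CPM, with F6709 close to F1721.

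Several abundant lipid storage and synthesis genes showed a pattern in which the hen of F6709 differed from the other restricted hens, and other members of the same lists did not. The diacylglycerol acyltransferase DGAT2, which makes the last step to triglyceride, had 318, 57.2 and 49.1 CPM with ad libitum and 956, 45.5 and 1199 CPM with restricted feeding. F1724 and F6710 were the highest of the 6 and F6709 the lowest. The lipogenic nuclear protein THRSP read 1206, 1057 and 985 CPM against 2766, 934 and 3955 CPM, and its paralogue THRSPB 61.9, 112 and 58.2 CPM against 281, 53.6 and 442 CPM. Both had F1724 and F6710 above all ad libitum libraries and F6709 below them. SREBF1, the transcription factor that drives lipogenic genes, repeated this with 100.5, 124 and 129 CPM against 283, 58.9 and 332 CPM.

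In genes of fat cell identity and uptake the order was alike. LPL read 2963, 1143 and 1048 CPM and 4976, 1298 and 4249 CPM, PLIN1 5919, 5111 and 4715 CPM and 7952, 3789 and 12323 CPM, and FABP4 6779, 7659 and 8278 CPM and 11708, 6842 and 13425 CPM. FABP3, a fatty acid carrier of oxidative tissues, read 1372, 736 and 671 CPM and 3726, 616 and 5063 CPM. F1724 and F6710 were above the other libraries in each of these genes. The acyl-CoA synthetase ACSL1 (1389, 816 and 599.5 CPM and 2069.7, 1130.4 and 2455 CPM) and glycerol kinase GK (83.6, 46.6 and 47.4 CPM and 156, 79.6 and 118 CPM) followed with F1721 near F6709. FASN, the fatty acid synthase, was less distinct, since F1721 at 826 CPM came near F6710 at 1014 CPM. SCD and the delta-6 desaturase FADS2 (54, 45 and 47.1 CPM and 98, 59.7 and 89.9 CPM) differed from this pattern in that F6709 was above all ad libitum libraries. PLIN2 (175, 181 and 193 CPM and 119, 239 and 97.7 CPM) and ELOVL1 (159, 211 and 200 CPM and 109, 204 and 105 CPM) had F1724 and F6710 lowest. PLIN4 (3523, 2081 and 1614 CPM and 1663, 961 and 6248 CPM) was high in F6710 but not in F1724. In GPAM, AGPAT4 and ELOVL6, too, F1724 and F6710 were not the highest.

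Genes of fatty acid use showed the reverse order. ANGPTL4, a secreted inhibitor of LPL that rises with fasting in mammals, read 29, 23 and 16.2 CPM with ad libitum and 2.02, 33.7 and 1.94 CPM with restricted feeding. F1724 and F6710 were at least 8 times below every other library, and F6709 was the highest of the 6. PDK4, which blocks glucose oxidation, read 241, 749.6 and 565 CPM and 65.1, 327 and 75.3 CPM, and the carnitine palmitoyltransferase CPT1A, the entry step of mitochondrial oxidation, 115, 167 and 186 CPM and 48.4, 182 and 35.3 CPM. PNPLA2, the adipose triglyceride lipase, did not follow, with 1245, 465 and 574 CPM and 915, 612 and 451 CPM.

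**Figure D4:**
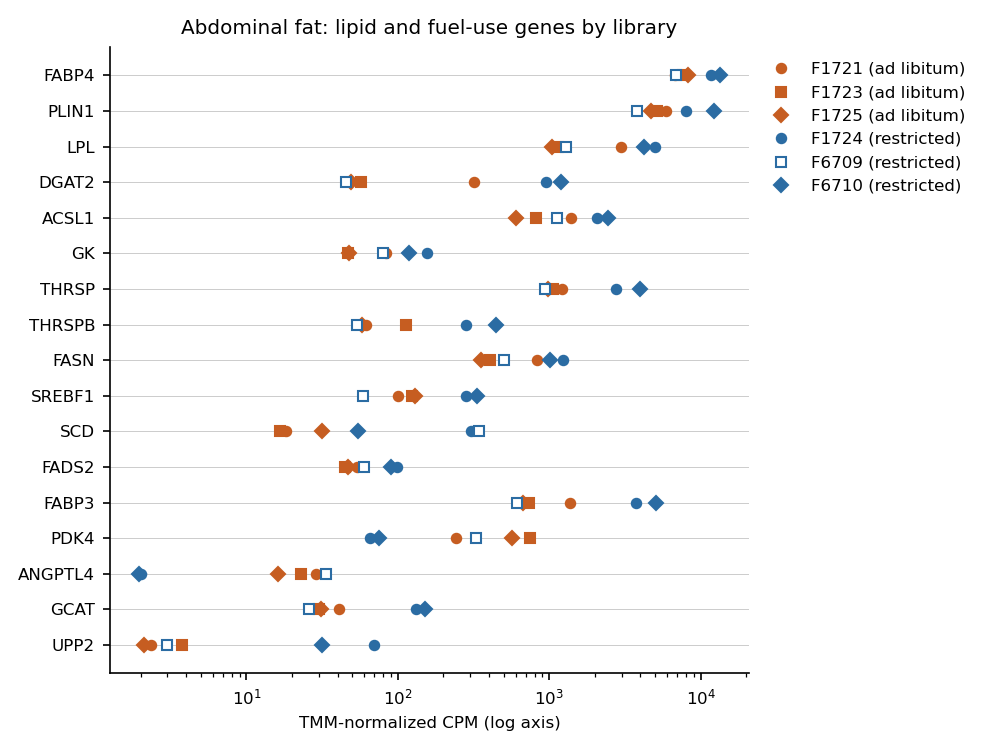
TMM-normalized CPM (log axis) of 17 genes of lipid and fuel metabolism in each fat library, orange for ad libitum and blue for restricted feeding, with F6709 as the open square. In most rows F1724 and F6710 stand apart from the other points, as for ANGPTL4 at 2.02 CPM and 1.94 CPM against 16.2 to 33.7 CPM. F6709 lies within the ad libitum range in some rows, such as FABP4, LPL and PDK4. It lies below that range in others, such as SREBF1 at 58.9 CPM, and above it for SCD, FADS2 and ANGPTL4. The genes shown were picked with their values known, and PLIN2, PLIN4, ELOVL1 and PNPLA2, which did not follow the pattern, are not shown.

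Without F6709, 5 genes passed the FDR of 0.1 (0.042%), in a fit that compares 3 with 2 libraries. These genes, and F6709 as the library to leave out, were singled out after their values were seen. Among them were WFIKKN2 (log2 fold change -2.91, adjusted p = 0.0823, edgeR quasi-likelihood), ANGPTL4 (3.52), UPP2 (-4.21) and GCAT (-2.06), of which ANGPTL4 was higher with ad libitum feeding. UPP2, a uridine phosphorylase, read 2.33, 3.77 and 2.11 CPM and 69.3, 2.99 and 31.5 CPM. GCAT, an enzyme of threonine breakdown, read 40.9, 30.0 and 31.2 CPM and 132, 25.8 and 152 CPM. For ANGPTL4, UPP2 and GCAT the F6709 value lay within or next to the ad libitum range. With F6709 in the fit the log2 fold change of ANGPTL4 was 0.85 (SE 1.03).

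The same lists were described as a whole, over genes that could be matched by symbol. Only 5181 of the 11914 tested genes had a symbol, which came from the study's gene lists and favoured genes with low p, so that 11.2% of genes with a symbol were separated, 4.67% with ad libitum and 6.52% with restricted feeding higher. On the ad libitum side 3.18% of them were under an unadjusted p of 0.05, and on the restricted side 6%. The median log2 fold change was 0.01 over all tested genes and 0.03 over those with a symbol, and without F6709 it was 0.03 and 0.08. No list held a call at FDR 0.1 except that of myostatin and activin regulators, through WFIKKN2.

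Of 11 fatty acid synthesis genes tested, 9 had a negative log2 fold change, 4 passed an unadjusted p of 0.05 with restricted feeding higher, and 2 were separated (SCD and FADS2). Their median was -0.76, and -0.95 without F6709. The 9 triglyceride synthesis genes had a median of -0.48, and -0.71 without F6709, and none was separated. For the 15 genes of fat cells and lipid droplets the values were -0.49 and -0.73. Without F6710, the library with the highest sum, the medians of these lists were -0.54, -0.34 and -0.17, so that the fat cell value moved most. The list sum was between 22594 and 25788 CPM with ad libitum feeding, 37697 CPM in F1724, 19189 CPM in F6709 and 50157 CPM in F6710, so that F6709 was the lowest of the 6 and F6710 the highest. Against the medians over all genes, close to 0, these lists lay on the restricted side with all libraries and on leaving out each of them. G0S2, an inhibitor of lipolysis picked after its values were seen, read 949.8, 1069.7 and 839 CPM and 3094, 714 and 5093 CPM, and the fat cell regulator PPARG 191, 146 and 147 CPM and 395, 124 and 409.9 CPM.

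Lipolysis and fatty acid oxidation genes had no common direction, with 6 of 12 on either side and a median of 0.03. That median was -0.41 without F1721, 0.29 without F1723 and -0.05 without F6709. PPARGC1A, a coactivator of mitochondrial genes, was the separated member, with 2.73, 3.77 and 4.01 CPM against 5.51, 4.3 and 7.84 CPM. The 7 tested genes of cholesterol synthesis and uptake had a median of -0.33, which was -0.47 without F6709 and -0.11 without F6710. NSDHL, an enzyme of that pathway, was separated with 3.22, 4.6 and 4.34 CPM against 5.85, 5.98 and 5.83 CPM.

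Amino acid metabolism was lower with ad libitum feeding in 9 of 14 genes, of which 6 passed an unadjusted p of 0.05, and the median was -0.91 (-1.09 without F6709, -1.38 without F1721 and -0.57 without F6710). PHGDH, the first enzyme of serine synthesis, read 2.1, 2.57 and 2.87 CPM and 14.4, 3.2 and 10.7 CPM and was separated by a narrow margin at F6709. PSAT1, the next enzyme of that pathway, read 4.43, 1.97 and 3.8 CPM and 12.6, 3.62 and 13.7 CPM, and the aspartate aminotransferase GOT1 105, 76.2 and 90.1 CPM and 179, 80.5 and 280.1 CPM. F6709 was at the ad libitum level for both. GPT2 was different, with all restricted libraries above all ad libitum libraries and its highest value in F6709.

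Immediate early genes lay on the other side, with 14 of 15 positive and 8 at an unadjusted p under 0.05. Their median was 0.99 (1.08 without F6709), but only FOSL2 and CSRNP1 were separated. KLF2, a factor of vessel lining cells, read 445, 1045 and 1135 CPM and 228, 528 and 298 CPM, NR4A3 34.6, 133 and 98.9 CPM and 40.8, 32.5 and 24.2 CPM, and ATF3 27.8, 73.8 and 79.2 CPM and 10.9, 40.5 and 11.4 CPM. F1723 and F1725 were high in each, whereas F1721 lay within the restricted range. EGR1 (751, 1216 and 1651 CPM and 981, 555 and 657 CPM) and JUN (370, 1003 and 901 CPM and 616, 416 and 512 CPM) overlapped, with F1721 under F1724 for EGR1 and under all restricted libraries for JUN. Endothelial genes moved with them, since the list summed to 6862 CPM in F1723 and 7392 CPM in F1725, 3277 CPM in F1721 and between 4150.01 and 4821 CPM with restricted feeding. Their part in the result was not tested.

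Insulin and fasting signals had 10 of 12 genes on the ad libitum side and a median of 0.50, which was 0.74 without F6709. SIK1, a salt-inducible kinase, was separated with 582, 1065 and 881 CPM against 452, 484 and 439.7 CPM (log2 fold change 0.88, SE 0.264), and SESN2, a sestrin induced by nutrient stress in mammals, with 12.5, 8.61 and 8.73 CPM against 3.77, 8.34 and 2.95 CPM, where F6709 nearly reached F1723. IGFBP2, which binds insulin-like growth factors, read 504, 240.3 and 108 CPM and 62.9, 167 and 51.2 CPM, with F6709 above F1725. KLF15, a regulator of amino acid and lipid use, went the other way, with 30.9, 17.6 and 13.6 CPM and 94.4, 17.9 and 92.7 CPM.

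Extracellular matrix genes were positive in 19 of 21 members, with a median of 0.54. The median was 0.81 without F6709 and -0.01 without F1721, so that it depended on F1721. Thrombospondin 1 (THBS1), with 267, 361 and 285 CPM against 127, 213 and 125 CPM, was separated (log2 fold change 0.98, SE 0.272), as was TIMP3, an inhibitor of matrix proteases, with 147, 197 and 164 CPM against 98.9, 140.1 and 112 CPM. The fibrillar collagen COL5A1 was separated too, with 567, 374 and 366 CPM against 341, 350 and 196 CPM. COL1A2, also a fibrillar collagen (3926, 2022 and 2621 CPM and 2144, 2536 and 1116 CPM), overlapped, and COL6A2 had a log2 fold change of 0.0023. Macrophage genes had a median of 0.39 (0.90 without F6709 and 0.10 without F1721), and MERTK, a receptor for dying cells, was the separated member with 129, 104 and 112 CPM against 76.2, 95.1 and 71.9 CPM.

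Of the other myostatin and activin regulators none was separated. The median of the 11 tested members was 0.18 and ran from -0.04 to 0.37 on leaving out each library, and TGFBR2, a receptor of the TGF-beta family, was at 163, 174 and 168 CPM and 158, 174 and 173 CPM. WFIKKN2 was thus alone in its list. In the steroid hormone and xenobiotic list (median -1.23 over 9 genes, and -0.88 without F6709 or without F6710) EPHX1L, an epoxide hydrolase, was separated with 17.5, 5.98 and 9.0 CPM against 31.8, 26.7 and 26.7 CPM. Its close relative EPHX1 has a count of its own, and reads may be shared between such copies.

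Transcripts typical of other organs varied from hen to hen. Liver secretion genes had a median of -1.65 over 18 genes, with 17 negative. It was -1.91 without F6709 and ran from -2.50 without F1721 to -1.03 without F6710. The yolk precursor VTG2 read 127, 1.02 and 77.7 CPM and 228, 90.1 and 416 CPM, and albumin (ALB) 138, 1.2 and 76.8 CPM and 175, 125 and 386 CPM, so that F1723 was nearly free of them. In liver ALB lay between 216680 and 273670 CPM. The immunoglobulin light chain gene IGLL1 read 383, 117 and 88.8 CPM and 574, 249 and 1377 CPM and was highest in F6710. The haemoglobin gene HBAA read 115, 721 and 425 CPM and 1031, 968 and 683 CPM and was lowest in F1721. The skeletal muscle list summed to between 22.3 and 50.9 CPM with ad libitum and between 64.6 and 88.4 CPM with restricted feeding. Of its 5 tested genes only 1 was separated, the troponin TNNI2 at 0.985, 0.717 and 0.488 CPM against 2.02, 2.73 and 1.94 CPM. TNNI2 entered the test only through the restricted group, so its gap follows in part from the filter. The actin ACTA1 overlapped, with 15.9, 38.9 and 34.2 CPM and 65.8, 66.2 and 14.5 CPM. The part of these transcripts in the results was not tested.

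Whether fat responded differently from liver or ovary of the same hens was tested as the difference of the feeding effects, over 9957 genes for liver and 11552 for ovary that passed the filter in both tissues. No gene passed an FDR of 0.1 for either tissue in edgeR's quasi-likelihood test (0% each), with 448 (4.5%) and 482 (4.17%) at an unadjusted p under 0.05, and none passed with the hen as a block. DESeq2 called 27 and 6. For SCD the difference of the log2 fold changes, fat minus liver, was -3.42 (SE 0.815, unadjusted p = 0.00127, adjusted p = 0.768, edgeR quasi-likelihood). Liver SCD read 1559, 837 and 1559 CPM and 998, 1025 and 1954 CPM on the scaling over all 18 libraries, and the groups overlapped there. For GPT2 the difference was -2.44 (adjusted p = 0.768) and for SHANK2 -2.76 (adjusted p = 0.768, both edgeR quasi-likelihood). SCD, GPT2 and SHANK2 were picked for their large fold changes in fat, and the same fat values enter these differences. The choice therefore favours large differences and a low unadjusted p.

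The position of the hen of F6709 was seen in the liver too, as a description of genes chosen after their values were seen. THRSP in liver read 1395, 979 and 1266 CPM with ad libitum and 7924, 1649 and 6956 CPM with restricted feeding, and FASN 3202, 2891 and 3462 CPM and 8548, 3217 and 11444 CPM. Livers of the hens of F1724 and F6710 were above all others for both genes, and that of the hen of F6709 was close to the ad libitum livers. PDK4 repeated the reverse order of fat, with 155, 457 and 463 CPM and 58.1, 275 and 86.1 CPM. ANGPTL4 did not, since all restricted livers were above all ad libitum livers (11.3, 8.33 and 15.1 CPM and 101, 40.4 and 93.1 CPM). The difference fat minus liver for ANGPTL4 was 3.57 (adjusted p = 0.991), and 6.56 without the hen of F6709 (adjusted p = 0.000345, edgeR quasi-likelihood), when UPP2 also passed with -5.05. SIK1 in liver read 154, 892 and 371 CPM and 55.2, 64.6 and 29.5 CPM and was separated there in the same direction as in fat.

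**Figure D5:**
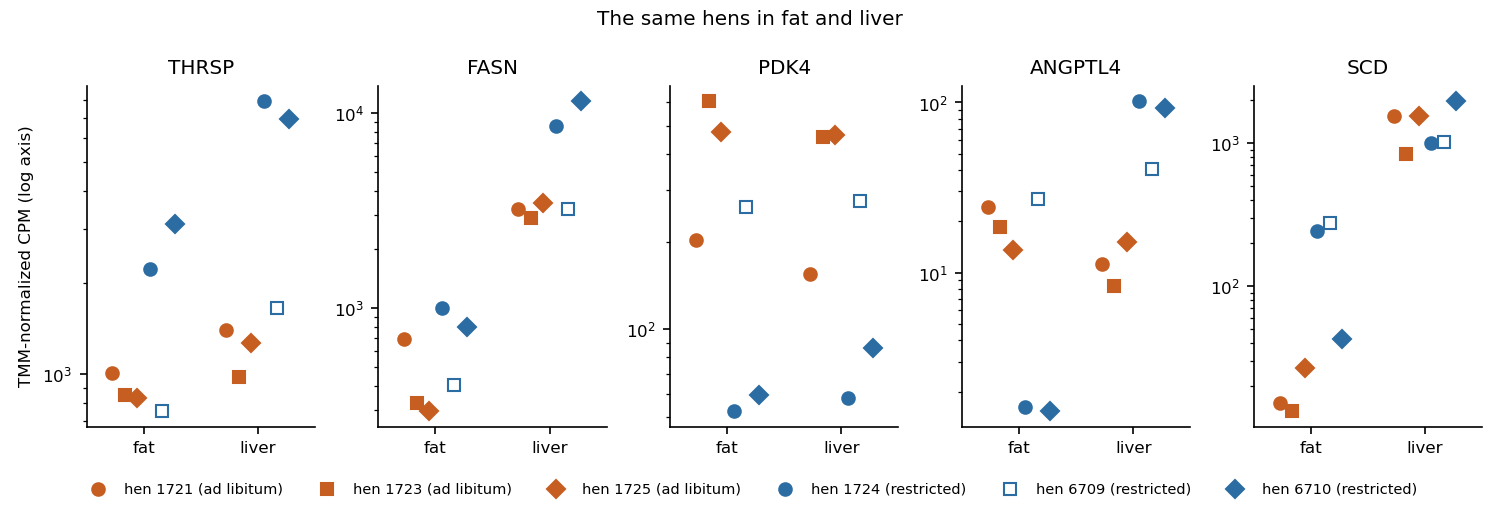
TMM-normalized CPM (log axes that differ between panels, scaling over all 18 libraries) of THRSP, FASN, PDK4, ANGPTL4 and SCD in fat and liver of the 6 hens, orange for ad libitum and blue for restricted feeding. The hen of F6709 (open square) lies near the ad libitum hens for THRSP and FASN in both tissues, and ANGPTL4 of the hens of F1724 and F6710 is the lowest in fat and the highest in liver.

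The unmarked genes with a ratio of at least 2 in fat were also looked up in the other tissues, which come from the same hens and are therefore not independent of fat. Of 11 genes higher in fat with ad libitum feeding and testable in liver, 6 were also separated upwards there, against 9.59% of all genes tested in both tissues. None of the 11 was separated the opposite way. In ovary it was 6 of 20 against 5.2%, with 1 the opposite way. They were mostly genes without a symbol, with ASL1 as the named one in liver and CHIR-B6 in ovary. Most of those in ovary were the same genes as in liver, so the counts of the tissues are not separate. Each of the 6 ovary genes had a restricted ovary library under 1 CPM, as CHIR-B6 with 1.35, 0.857 and 0.094 CPM. They thus passed the ovary filter only through the ad libitum group, and their gap there follows in part from the filter. The same held in liver for a gene without a symbol at 0.26, 1.44 and 0.267 CPM with restricted feeding. Of genes higher with restricted feeding, 5 of 34 were separated the same way in liver (11.9% of all genes) and 6 the opposite way (9.59% of all genes). In ovary 4 of 68 were separated the same way (3.46% of all genes) and 1 the opposite way (5.2%). Those in liver included EPHX1L and FAH, the last enzyme of tyrosine breakdown, and those in ovary included TRH, the precursor of thyrotropin-releasing hormone. TRH, at 1.24, 0.46 and 0.608 CPM in the ad libitum ovaries, passed the ovary filter only through the restricted group.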

How the data were processed

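Members, gene lists and tests were chosen with earlier results of these data known. The authors sequenced paired-end RNA libraries (NEBNext Ultra kit, Illumina HiSeq), mapped reads to Gallus_gallus-5.0 with TopHat 2.1.1 and Bowtie 2.0.6, and deposited raw counts of reads per Ensembl gene made in R. Strand use and the treatment of reads shared by similar genes are not given in the sources used here. The 18 columns of the count table were matched to samples by tissue letter and hen number, and 0 columns were left over.

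Genes above 1 CPM in all 3 fat libraries of at least 1 group were tested with edgeR 4.0.16 (TMM, quasi-likelihood, Benjamini-Hochberg over all tested genes, FDR 0.1, the study's threshold). The method was also run on simulated counts. These held no library set apart as F6709 was, so that run cannot tell how the test behaves with such a library. The interaction of tissue and feeding was fitted with the same tool. Log2 fold changes are ad libitum over restricted, and SE is the fold change divided by the root of F. Separation and ratios used TMM-normalized CPM. Floors cover counting error only, whereas SD and SE include variation between hens. Alternatives were DESeq2 1.42.0, likelihood ratio tests, other scalings, filters and ratios, and leaving out each library in turn.

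Symbols came from the study's gene lists and RefSeq (GRCg7b names only), for 5816 of 17108 genes. A gene under no symbol may still be in the table. Only genes with a symbol were ranked. Genes were named if called, if among the 15 largest changes per direction that were separated with a ratio of at least 2 and rested on no single library, if among the 10 largest ratios per direction that rested on 1 library, or if members of 25 fixed lists that were separated with a ratio of at least 1.5 or, up to 4 a list, the most abundant others. Other genes were named after their values were seen: CPT1A, G0S2, PPARG, PLIN2, ELOVL1, GPAM, AGPAT4, ELOVL6, KLF15, PSAT1, NSDHL, NR4A3, ATF3, TIMP3, COL5A1, MERTK, FAH, TRH, ADIPOQ, CEBPB, GREM1, POSTN, SMOC1, CYP17A1 and those next to the ratio limit. Values of 2 genes that met these rules or were called without F6709 are not reported here. Gene sequences were not used here.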

Additional observations from a re-analysis of the deposited data

How the results depend on the processing

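The number of genes called at FDR 0.1 in fat (1 in the main test) was 1 with a filter on all 6 libraries or none, with RLE size factors and with library size alone, 0 at FDR 0.05, 2 (SCD and ROS1) in 1 fit of all 18 libraries, where WFIKKN2 had an adjusted p of 0.176, 78 with DESeq2, and 88 and 349 in likelihood ratio tests with gene-wise and trended dispersions. Leaving out 1 library gave 0 to 5, and without F1723 the single call was a gene without a symbol that was high in that library. The count of separated genes with a ratio of at least 2 (63 higher with ad libitum, 202 with restricted feeding) was 129 and 495 without a filter, 39 and 77 with a filter on all 6 libraries, 16 and 123 at a ratio of 3, and 185 and 296 at a ratio of 1.5. It ranged from 66 to 370 and from 246 to 458 on leaving out 1 library, highest without F6709 and next without F1721 (208 and 410). Those resting on 1 library (146) were 375 without a filter, 70 with a filter on all 6 libraries and 216 to 470 on leaving out 1 library. Fewer libraries or lower counts separate more easily by construction.

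Fat minus liver calls (0) were 27 with DESeq2 and 0 to 2 on leaving out a hen, and fat minus ovary calls (0) were 6 with DESeq2 and 0 on leaving out a hen. With the hen as a replicate block both counts were 0. No paired analysis was possible because each hen had 1 feeding regime in the comparison within fat. Hens were the same animals across tissues, and the correlation of their deviations ran from -0.147 to 0.313 for liver and from 0.0199 to 0.283 for ovary.

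Of 111 named genes for which alternatives were compared, 100 kept the sign of their log2 fold change under all 14 alternatives. On leaving out 1 library the log2 fold change ran from -0.34 to 0.49 for PNPLA2, from -0.43 to 0.25 for COL6A2, from -0.066 to 0.024 for TGFBR2, from -4.95 to 0.22 for INCENP, from -4.91 to 3.09 for KRT7, from -4.97 to 3.39 for KRT19, from -0.60 to 2.46 for GREM1, from -0.32 to 3.79 for SMOC1, from -0.59 to 2.0 for POSTN, from -2.03 to 0.45 for CYP17A1 and from -0.16 to 0.41 for ADIPOQ. COL6A2 was -0.0078 with DESeq2 or RLE size factors, -0.0011 with all 18 libraries and -0.0067 with a filter on all 6 libraries, and TGFBR2 was 0.031 by library size alone and 0.040 without a filter. Named-gene values passed FDR 0.1 under an alternative only in 108 cases and lost it in 6. For these shifts the cause was not tested beyond the library left out. List medians were recomputed under the same alternatives after the data had been seen, and 21 of 350 values moved by more than the spread between replicates. With 3 hens a group, differences of few counts in genes under 5 CPM were not resolved at this depth.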

Other observations

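A further group of fat genes, picked after their values were seen, was high in F1721 alone among the ad libitum libraries. The BMP antagonist gremlin 1 (GREM1) read 199, 16.1 and 9.54 CPM with ad libitum and 24.5, 30.4 and 3.48 CPM with restricted feeding. Periostin (POSTN), a matrix protein, read 1259, 205 and 250.4 CPM and 186, 739.9 and 101 CPM, and the matricellular gene SMOC1 179, 28.3 and 17.7 CPM and 7.4, 74.9 and 3.42 CPM. F6709 was the highest restricted library in each, as it was for KRT7 and KRT19, and the groups overlapped. The steroid hydroxylase CYP17A1 was an example from another hen, with 3.09, 9.57 and 4.66 CPM against 6.86, 1.63 and 38.9 CPM and its highest value in F6710.

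Fat cell markers were not uniform in their order among libraries. Adiponectin (ADIPOQ), a hormone of fat cells, read 151, 333 and 389 CPM and 279, 217 and 318 CPM, so that F1721 and not F6709 was lowest, while PLIN1 was lowest in F6709. CEBPB, a transcription factor of early fat cell development, was the separated member of the fat cell list, with 125, 145 and 119.7 CPM against 78.5, 104 and 109 CPM, and lay on the ad libitum side. In the cell cycle list PCNA, the sliding clamp of DNA replication, was separated at 50.1, 44.2 and 44.4 CPM against 52.3, 54.6 and 59.6 CPM, a difference of -0.26 on the log2 scale.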
